A study of Mus musculus with 20 samples.

Results

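The genes described here were 10 members of the tumor necrosis factor (TNF) superfamily and its receptors. They were chosen by symbol from the RNA-seq table of all 24062 genes, with earlier results of these data known. They comprised 4 ligands (Tnfsf13b, Tnfsf10, Tnfsf8 and Ltb), 4 death receptors (Fas, Tnfrsf1a, Tnfrsf10b and Tnfrsf21) and 2 receptors that lack a death domain (Tnfrsf1b and Tnfrsf11a). RNA was measured in microglia that had been isolated with magnetic beads from the whole brain of 20 single male mice. The mThy1-α-synuclein mice carried an X-linked transgene for full-length, wild-type human α-synuclein, driven by the mouse Thy-1 promoter, which is active mainly in neurons, and the wild-type littermates carried no transgene. All mice were on the B6D2F1/J background, a cross of inbred strains, and the labels name no treatment. The 7-month cohort held 6 transgenic mice and 4 wild-type littermates, and the 10-month cohort 5 mice of each genotype. The labels name IBA1 as the selection marker, whereas the study's methods describe CD11b beads, and both proteins are also made by other myeloid cells. The mice of the 2 ages formed separate cohorts and were scaled separately, so that age cannot be told apart from cohort.

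TNF superfamily ligands are mostly trimeric membrane proteins that can be shed from the cell and that bind receptors on neighboring cells. Receptors with an intracellular death domain can recruit adaptors such as FADD and TRADD and activate caspase-8, whereas receptors without one bind TRAF adaptors and signal mainly to NF-κB and MAP kinases. Microglia are the resident macrophages of the brain and are known both to release TNF and to carry its receptors.

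Library depth ran from 33404096 to 77806399 reads assigned to genes per mouse. As a check of the labels, Thy1, whose promoter drives the transgene, lay between 392 and 1741 normalized counts in the mThy1-α-synuclein mice and between 9.41 and 47.6 in the wild-type mice. The 10 microglial markers were present in every mouse, with overlapping sums. In mThy1-α-synuclein against wild-type mice they summed to 1962336 to 2309459.9 against 1870156 to 2099248 normalized counts at 7 months and to 1848916 to 2099688 against 1689737 to 1923259.7 at 10 months. The markers that passed the test were all higher in the mThy1-α-synuclein mice, 1 of 10 at 7 months (Gpr34) and 4 of 10 at 10 months (Cx3cr1, Itgam, Sall1 and Siglech). Over all genes tested, 4.93% passed at 7 months and 7.67% at 10 months. Markers of other blood and brain cells were also present, and several differed with genotype. All 7 natural killer (NK) cell markers were lower in the mThy1-α-synuclein mice at both ages, and 5 of the 7 passed the test at each age. In bulk samples such as these, fewer cells of a type and less RNA per cell cannot be told apart.

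**Figure D1:**
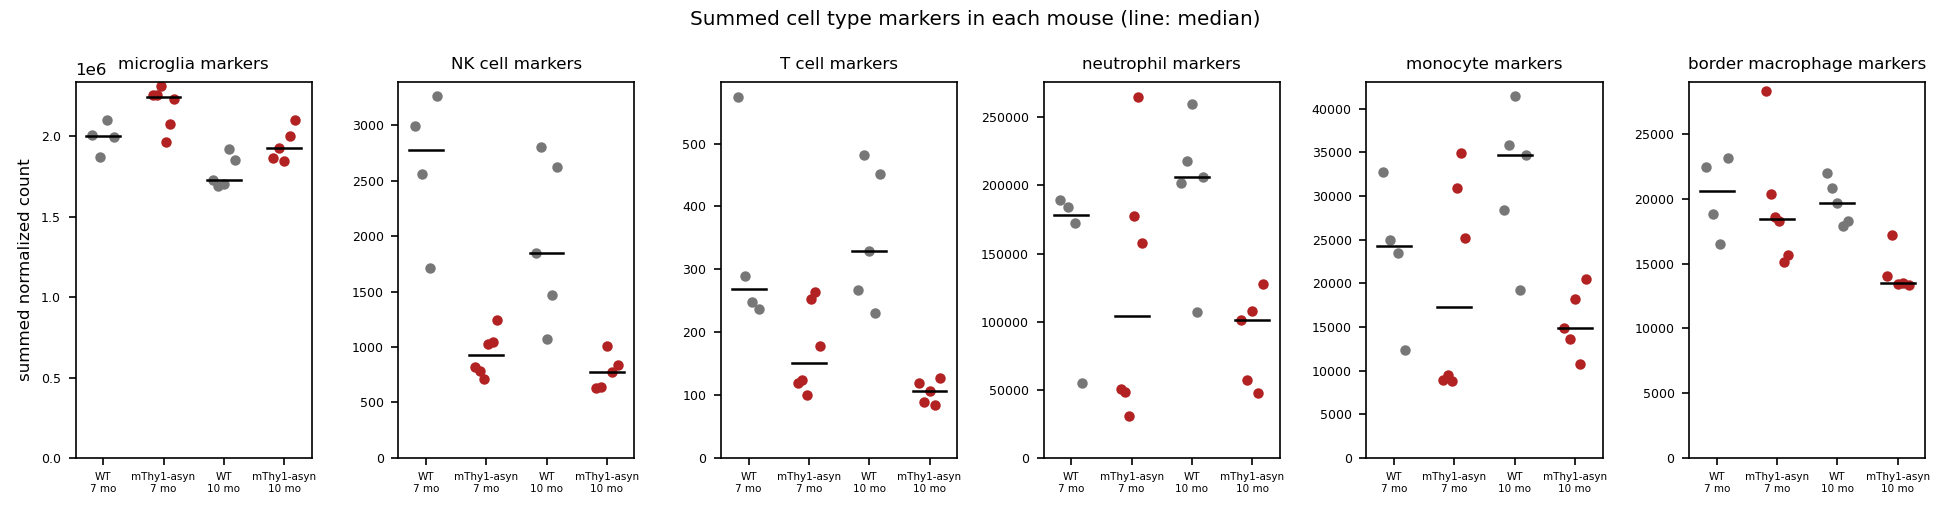
Summed normalized counts (vertical axes, from 0) of the markers of 6 cell types, with 1 point for each mouse and a line at the group median; wild-type mice are gray and mThy1-α-synuclein mice red. The NK cell sums of the 7-month mThy1-α-synuclein mice sit at 715 to 1247, all below the 1716 to 3264 of their wild-type littermates.

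Divided by the length of their exons, the members covered about 3 orders of magnitude in level, from Tnfrsf21 to Tnfrsf10b. Levels per kilobase are given for the wild-type mice at 7 months unless stated. Tnfrsf21, which encodes death receptor 6, was highest, at 4940.0 ± 385 normalized counts per kilobase of exon (SD, n = 4). Both TNF receptors followed, Tnfrsf1b at 3687 ± 296 and Tnfrsf1a at 3532 ± 169.8 per kilobase, and this pair overlapped in all 4 groups. Tnfrsf21 overlapped the next gene only in the 10-month wild-type mice. Tnfrsf11a, the RANK receptor, lay below them at 854 ± 75.8 per kilobase, and Tnfsf13b, the B cell survival factor BAFF, at 547 ± 45.5. These 2 places, the fourth and the fifth, were the same in all 4 groups and overlapped neither neighbor in any of them.

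The next 4 genes, Ltb, Tnfsf8, Tnfsf10 and Fas, ran from 231 ± 40.2 to 106 ± 35.3 per kilobase, each overlapped its neighbor in the order, and they changed places between groups. Ltb stood sixth in both wild-type groups and seventh, behind Tnfsf10, in both mThy1-α-synuclein groups. Tnfrsf10b, a mouse TRAIL receptor, was last in every group, at 4.42 ± 2.41 per kilobase. With the longest transcript as the length, Tnfrsf1a and Tnfrsf1b changed places in 3 of the 4 groups, and Tnfsf10 and Fas in both wild-type groups. No exon of another annotated gene overlapped an exon of any member in the GENCODE M21 annotation.

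**Figure D2:**
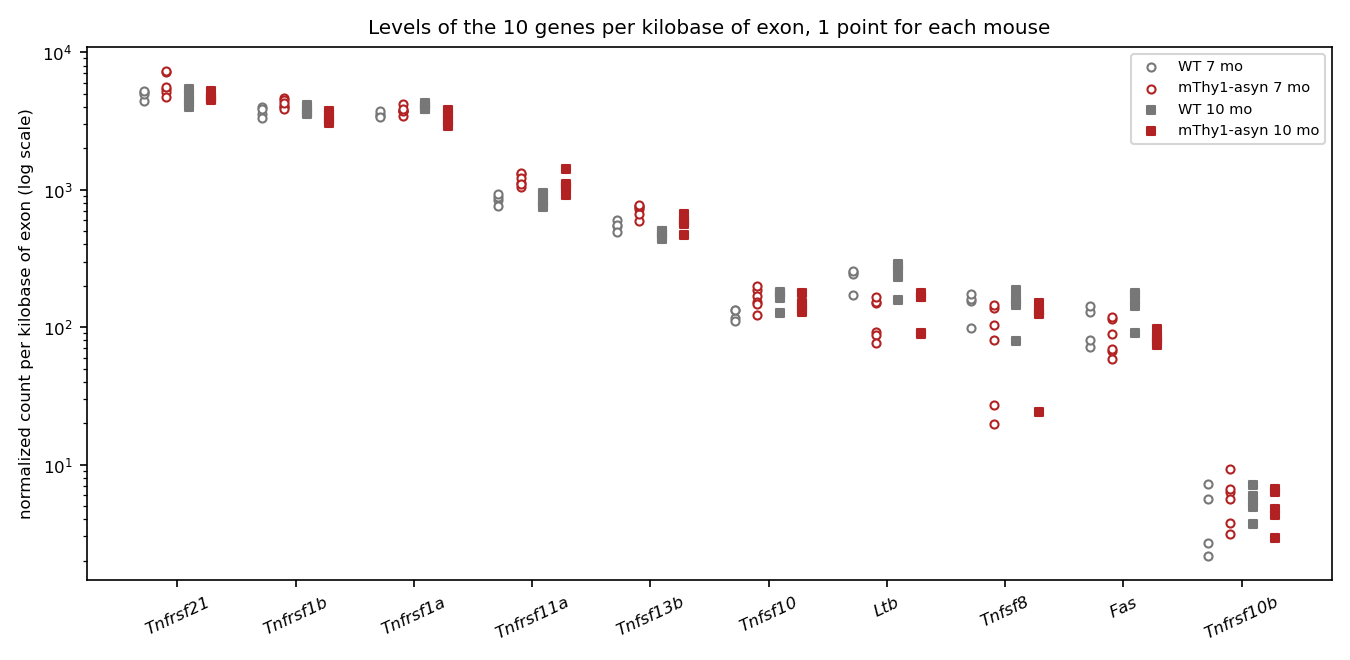
Normalized count per kilobase of exon (vertical axis, log scale) of the 10 members, with 1 point for each mouse; open circles are 7 months, filled squares 10 months, gray wild-type and red mThy1-α-synuclein. Tnfrsf21, Tnfrsf1b and Tnfrsf1a form the highest group and Tnfrsf10b lies below all other members, while Tnfsf8 has 3 mThy1-α-synuclein mice far below the rest.

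The upstream bases of 4 members are printed because these genes were called higher (Tnfrsf11a and Tnfsf13b) or lower (Ltb and Fas) in the mThy1-α-synuclein mice at 7 or 10 months. Tnfrsf1a was also called lower, but its RefSeq window lies wholly downstream of its first annotated base, so no upstream bases remained to print. They were taken from RefSeq on GRCm38.p6, read 5′ to 3′ on the plus strand, and end before the first annotated base of each gene in GENCODE M21. The stretches are chr1:105780473-105780717, chr8:10006217-10006466, chr17:35194257-35194438 and chr19:34290409-34290658. Capitals mark matches, on either strand, to letters bound by AP-1 (TGANTCA), NF-κB (GGGANNNNCC), PU.1 (GAGGAA) or the interferon-stimulated response element (GAAANNGAAA).
Tnfrsf11a: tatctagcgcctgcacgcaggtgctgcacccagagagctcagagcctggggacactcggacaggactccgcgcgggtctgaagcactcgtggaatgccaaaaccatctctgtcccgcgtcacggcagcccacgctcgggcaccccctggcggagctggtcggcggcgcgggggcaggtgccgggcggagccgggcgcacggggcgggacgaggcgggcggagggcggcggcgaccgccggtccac
Tnfsf13b: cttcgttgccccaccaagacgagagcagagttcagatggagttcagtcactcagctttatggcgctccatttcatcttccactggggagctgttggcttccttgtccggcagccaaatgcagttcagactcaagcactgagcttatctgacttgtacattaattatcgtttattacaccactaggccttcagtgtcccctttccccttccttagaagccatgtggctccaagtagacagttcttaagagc
Ltb: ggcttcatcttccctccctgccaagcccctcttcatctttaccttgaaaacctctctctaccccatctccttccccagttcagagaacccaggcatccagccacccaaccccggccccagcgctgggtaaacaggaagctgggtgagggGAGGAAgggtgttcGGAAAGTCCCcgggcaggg
Fas: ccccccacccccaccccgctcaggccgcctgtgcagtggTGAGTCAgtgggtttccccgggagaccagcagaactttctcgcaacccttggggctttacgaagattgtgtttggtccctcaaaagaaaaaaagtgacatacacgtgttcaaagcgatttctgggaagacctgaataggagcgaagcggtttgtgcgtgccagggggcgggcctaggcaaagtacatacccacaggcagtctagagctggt
Ltb held an NF-κB match 87 to 78 bases before its RefSeq start and a PU.1 match 101 to 96 bases before it, and no 2 of these matches overlapped. Fas held an AP-1 match 211 to 205 bases before its start. Tnfsf13b has a second RefSeq window, chr8:10006383-10006632, which held an AP-1 match 127 to 121 and a response element match 16 to 7 bases before its start. Both lie downstream of the first annotated base of the gene and so are not in the stretch printed. Of the 32851 RefSeq windows of 250 upstream bases, 6.75% held the AP-1 letters, 17.6% the NF-κB letters, 23.3% the PU.1 letters and 2.98% the response element letters. RefSeq windows were found for 9 of the 10 members, and Tnfrsf10b was not matched. Among these 9, the AP-1 letters stood in 2 members, the NF-κB letters in 1, the PU.1 letters in 3 and the response element letters in 2. A match is a description of the letters and not evidence of binding.

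At 7 months, 3 of the 10 members passed the test, against 4.93% of all 13887 genes tested. Tnfrsf11a and Tnfsf13b were higher in the mThy1-α-synuclein mice and Ltb was lower. At 10 months 4 of the 10 passed, against 7.67% of 13627 genes: Tnfrsf11a was higher, and Ltb, Fas and Tnfrsf1a were lower. Because the members were chosen with earlier results of these data known, these counts beside all genes are not a test of the family. Each member passed the filter on low values at both ages. The median log2 fold change of the members was 0.22 at 7 months, where 7 lay above 0, and -0.16 at 10 months, where 3 did; over all genes tested both medians were 0.00. The groups did not overlap for 2 members at 7 months (Tnfrsf11a and Ltb), against 7.53% of genes, and for 1 member at 10 months (Tnfrsf1a), against 7.27%. Several calls lay close to the threshold. Leaving out 1 mouse at a time, the number of members called ran from 1 to 4 at 7 months, with 1 left without wild-type replicate 1 or 3. At 10 months it ran from 0 to 4: none passed without wild-type replicate 2, 1 passed without mThy1-α-synuclein replicate 1 or wild-type replicate 1 or 5, and 2 passed without mThy1-α-synuclein replicate 2, 3 or 5 or wild-type replicate 3. It was also 2 with no filter on low values.

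**Figure D3:**
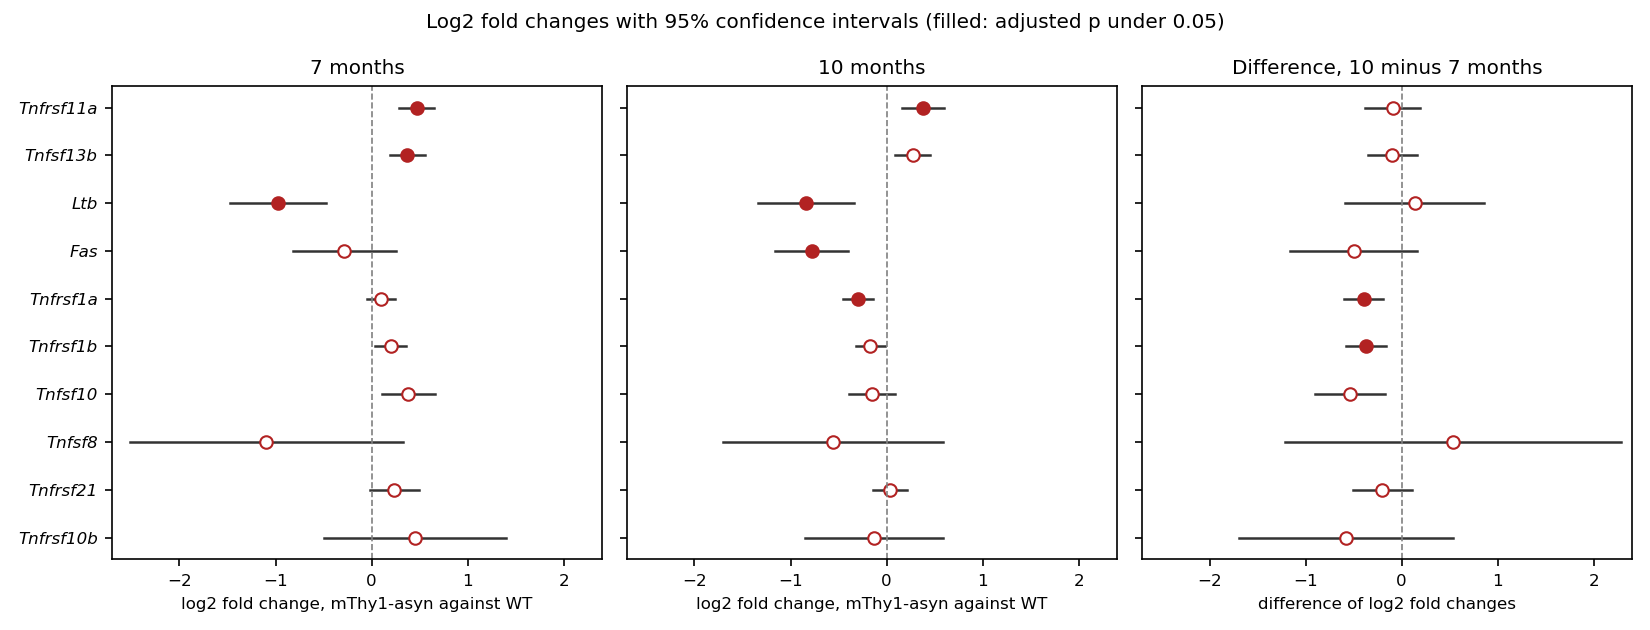
Log2 fold change of mThy1-α-synuclein against wild type at 7 months (left) and at 10 months (middle), and their difference (right), for the 10 members; lines are 95% confidence intervals from limma, and filled points passed an adjusted p of 0.05. Tnfrsf11a and Ltb are filled at both ages and lie on opposite sides of 0, whereas Tnfrsf1a and Tnfrsf1b are filled for the difference between ages.

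Among the ligands, Ltb fell at both ages. Ltb encodes lymphotoxin β, which anchors lymphotoxin α at the cell surface and signals through the receptor Ltbr, and it lies at chr17:35194439-35196320. In the 7-month wild-type mice it was at 381, 368, 391 and 259.7 normalized counts, and in the mThy1-α-synuclein mice at 116 at the lowest, 184 at the median and 251 at the highest. Every mThy1-α-synuclein mouse was thus below every wild-type mouse. The means were 183 ± 59.5 (SD, n = 6) and 349.9 ± 60.9 (SD, n = 4), a log2 fold change of -0.98 ± 0.23 (SE) with an adjusted p of 0.0257 from limma. In the older cohort the wild-type mice were at 395, 412, 434, 238 and 351, and the mThy1-α-synuclein mice at 253, 253, 269.7, 136 and 134. Wild-type replicate 4 lay below 3 of the 5 mThy1-α-synuclein mice, and the others did not overlap. The log2 fold change was -0.84 ± 0.23 (SE), with an adjusted p of 0.0424 from limma.

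The direction of the Ltb difference was the same whichever single mouse was left out, but the call was not. At 7 months the adjusted p from limma was 0.0554 without mThy1-α-synuclein replicate 2, and 0.101, 0.0721 and 0.0874 without wild-type replicates 1, 2 and 3. At 10 months it was 0.0524, 0.0714 and 0.0906 without mThy1-α-synuclein replicates 1, 4 and 5. Without wild-type replicates 1, 2, 3 and 5 it was 0.0906, 0.0983, 0.0938 and 0.0817, and with no filter on low values 0.0536. Of the markers of NK and T cells, which are known to express Ltb, 5 of 7 and 1 of 3 tested passed as lower at each age in limma. The summed NK cell markers were 715 to 1247 against 1716 to 3264 at 7 months and 627 to 1013 against 1069.6 to 2804 at 10 months, in mThy1-α-synuclein and wild-type mice respectively. The 6 T cell markers in the table summed to 101 to 264 against 236 to 574 and to 83.8 to 126 against 229.8 to 481, with Cd8a at 0 in at least 1 mouse of each group. B cells are known to express Ltb too. The 5 B cell markers summed to 567 to 846 against 608 to 960.1 and to 509 to 743 against 439 to 541, and none of the 4 and 3 tested passed in limma, DESeq2 or edgeR, with 0 and 1 at an unadjusted p under 0.05 in each tool. The part of any of these cells in the result was not tested.

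Tnfsf13b rose at 7 months. Its product BAFF binds receptors on B cells and is made by myeloid cells, and the gene lies at chr8:10006467-10039072. The wild-type mice were at 3764, 4126, 3781 and 3362 normalized counts, and the mThy1-α-synuclein mice at 4069 at the lowest, 5039 at the median and 5328 at the highest. Only the lowest mThy1-α-synuclein mouse lay under the highest wild-type mouse. The means were 4872 ± 481 (SD, n = 6) and 3758 ± 313 (SD, n = 4), a log2 fold change of 0.37 ± 0.09 (SE) with an adjusted p of 0.022 from limma. Without wild-type replicates 1, 3 and 4 the adjusted p from limma was 0.0744, 0.0567 and 0.068. At 10 months Tnfsf13b was at 4095, 3993, 3858, 3227 and 4534 in the mThy1-α-synuclein mice and 3068, 3456, 2989, 3450.1 and 3258 in the wild-type mice. The fold change was smaller there, 0.27 ± 0.09 (SE) on the log2 scale, and did not pass (adjusted p = 0.0638, limma). It passed without mThy1-α-synuclein replicate 4, the lowest of its group, with an adjusted p of 0.0139.

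Tnfsf10 encodes TRAIL, a ligand that can trigger apoptosis through death receptors. At 7 months it was at 644 at the lowest, 841 at the median and 1049 at the highest in the mThy1-α-synuclein mice and at 700.2, 616, 701 and 581 in the wild-type mice. At 10 months the order of the means turned, with 932, 674, 789.8, 757 and 714 in the mThy1-α-synuclein mice and 935, 895, 670.0, 956 and 851 in the wild-type mice. Neither age passed the test: the log2 fold changes were 0.38 (95% interval 0.11 to 0.66) and -0.15 (95% interval -0.40 to 0.09), with adjusted p of 0.101 and 0.453 from limma. Without mThy1-α-synuclein replicate 4, the lowest of its group, the 7-month log2 fold change was 0.46 and its adjusted p 0.0307.

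Tnfsf8, which encodes the CD30 ligand and lies at chr4:63831308-63861347 on the minus strand, had the largest coefficient of variation of the 4 ligands in each of the 4 groups. In the 7-month mThy1-α-synuclein mice it was at 307, 524, 552, 396, 104 and 75.1 normalized counts for replicates 1 to 6, and in the wild-type mice at 377, 585, 606 and 667. Among the 10-month mice, the mThy1-α-synuclein group was at 573, 499, 477, 91.6 and 486 and the wild-type group at 612, 550.2, 303, 593 and 705. Replicates 5 and 6 at 7 months and replicate 4 at 10 months, all mThy1-α-synuclein, thus stood apart from the other 17 mice. The log2 fold changes were -1.10 (95% interval -2.52 to 0.32) and -0.56 (95% interval -1.70 to 0.58), with adjusted p of 0.354 and 0.56 from limma. The width of these intervals leaves changes of either sign possible at both ages.

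The gene with the highest Pearson correlation with Tnfsf8 across the mice lay nearby on the same chromosome. This was looked at after the values of Tnfsf8 had been seen. Whrn, which encodes the scaffold protein whirlin, lies 335 kilobases away at chr4:63414910-63495991. After subtraction of the group means, the Pearson correlation of Whrn with Tnfsf8 on the log2 scale was 0.85 over 20 mice (Spearman 0.74), the highest Pearson value of the 14457 genes compared. Ubn1 came next by Pearson, at 0.84, and its Spearman value of 0.81 was above that of Whrn, so that the order depends on the measure. Whrn was at 1319.6, 1792, 1329.5, 1202, 709 and 574 in the 7-month mThy1-α-synuclein mice, replicates 1 to 6, and at 1402, 1126, 1373, 707 and 1237 in the 10-month ones. The 3 mice with the lowest Tnfsf8 were also the 3 with the lowest Whrn of all 20. In the wild-type mice Whrn was at 1449.8, 2965, 2801 and 3066 at 7 months and 1030.4, 1139.8, 1277, 1294 and 1646 at 10 months. Both genes were measured in the same libraries, from mice of a mixed strain background. The part of the libraries or of the background in this likeness was not tested.

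**Figure D4:**
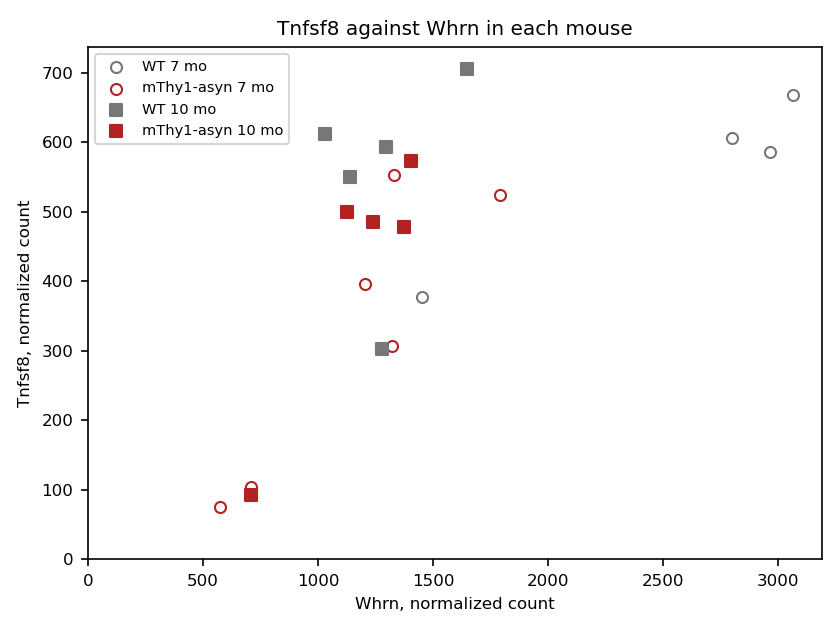
Normalized counts of Tnfsf8 (vertical axis) against Whrn (horizontal axis), both from 0, with 1 point for each of the 20 mice; open circles are 7 months, filled squares 10 months, gray wild-type and red mThy1-α-synuclein. The 3 mThy1-α-synuclein mice under 110 normalized counts of Tnfsf8 lie at the lower left, at 574, 707 and 709 normalized counts of Whrn.

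Of the 4 death receptors, Fas and Tnfrsf1a fell at 10 months, where 7.67% of all genes were called. None passed at 7 months in limma, DESeq2 or edgeR, beside 4.93% of all genes in limma. The number with an unadjusted p under 0.05 at 7 months was 0 in limma, beside 2962 of 13887 of all genes. It was 1 in DESeq2, beside 2962 of 13612, and 1 in edgeR, beside 2949 of 13887. Fas, at chr19:34290666-34327772, is the receptor of Fas ligand and a classical trigger of caspase-8. At 10 months it was at 200.2, 162, 171, 153 and 176 normalized counts in the mThy1-α-synuclein mice and 351, 367, 319, 188 and 292 in the wild-type mice. Wild-type replicate 4 lay under the highest mThy1-α-synuclein mouse, and the other 4 wild-type mice lay above the whole group. The means were 172 ± 17.8 (SD, n = 5) and 303 ± 70.6 (SD, n = 5), a log2 fold change of -0.78 ± 0.18 (SE) with an adjusted p of 0.019 from limma. Without wild-type replicate 2 the adjusted p from limma was 0.0547. At 7 months Fas was at 121 at the lowest, 164 at the median and 246 at the highest in the mThy1-α-synuclein mice and at 268, 294, 149 and 165 in the wild-type mice, which overlapped widely. The log2 fold change of -0.28 had a 95% interval of -0.82 to 0.26 and an adjusted p of 0.554 (limma).

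Neutrophil and monocyte markers are given beside Fas, and they were not the only ones to differ with genotype at 10 months. Markers of NK cells (5 of 7), border macrophages (3 of 6), T cells (1 of 3) and dendritic cells (1 of 5) also passed as lower. Those of microglia (4 of 10) and astrocytes (1 of 6) passed as higher. The 5 neutrophil markers in the table summed to 47569 to 127368 in the 10-month mThy1-α-synuclein mice and 107453 to 259525 in the 10-month wild-type mice. The 5 monocyte markers summed to 10749 to 20467 and 19261 to 41465, and 2 neutrophil and 2 monocyte markers passed the test as lower. Wild-type replicate 4, with the lowest Fas of its group, also had the lowest neutrophil and monocyte sums in that group. Within the 7-month mThy1-α-synuclein mice, replicates 4 to 6 had neutrophil sums of 157487 to 264562 and Fas at 184 to 246, whereas replicates 1 to 3 had sums of 30674 to 50867 and Fas at 121 to 144. The 7-month wild-type mice did not follow this order. Their replicate 3 had the lowest Fas, 149, with a neutrophil sum of 172492 and a monocyte sum of 23468, whereas replicate 4 had the lowest sums, 54812 and 12372, with Fas at 165. Ltb in the 7-month mThy1-α-synuclein mice was at 229 to 251 in replicates 4 to 6 and at 116 to 139 in replicates 1 to 3. Sums of other cell types split these mice too. Replicates 4 to 6 had monocyte sums of 25136 to 34882, NK cell sums of 1025 to 1247 and T cell sums of 178 to 264. Replicates 1 to 3 had 8841 to 9496, 715 to 824 and 101 to 125. Border macrophage sums went the other way, at 15138 to 18277 in replicates 4 to 6 and 18609 to 28313 in replicates 1 to 3. Microglial sums did so as well, at 1962336 to 2229729 and 2255102 to 2309460. The part of these cells in the levels of Fas and Ltb was not tested.

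Tnfrsf1a encodes TNF receptor 1, the death domain receptor of TNF, and lies at chr6:125349362-125362484. At 10 months it was at 7567, 7990.0, 8331, 9174 and 9789 in the mThy1-α-synuclein mice and 11142, 10781, 9929, 9954 and 10662 in the wild-type mice. No mThy1-α-synuclein mouse reached the lowest wild-type mouse. The means were 8570.2 ± 902 (SD, n = 5) and 10494 ± 534 (SD, n = 5), a log2 fold change of -0.30 ± 0.08 (SE) with an adjusted p of 0.0301 from limma. Without mThy1-α-synuclein replicates 1, 2 and 3 the adjusted p was 0.0703, 0.0659 and 0.0706 (limma). Without wild-type replicates 1, 2 and 5 it was 0.0643, 0.0709 and 0.0617. At 7 months the mThy1-α-synuclein mice were at 8905 at the lowest, 9742 at the median and 10819 at the highest and the wild-type mice at 9236, 8935, 9726 and 8708. That log2 fold change was 0.10, with a 95% interval of -0.05 to 0.24 and an adjusted p of 0.428 (limma).

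The other 2 death receptors passed at neither age. Tnfrsf21 was at 19447 at the lowest, 22631 at the median and 29873 at the highest in the 7-month mThy1-α-synuclein mice, with replicates 3 and 5 at 29733 and 29873 and the other 4 no higher than 23092, beside wild-type mice at 21266, 18027, 20426 and 21475. At 10 months the means were 19421 ± 1195 (SD, n = 5) and 18991 ± 2349 (SD, n = 5), and the log2 fold change of 0.04 had a 95% interval of -0.14 to 0.21. Tnfrsf10b rested on 10 to 56 reads per mouse. Its log2 fold changes of 0.45 and -0.13 had 95% intervals of -0.50 to 1.40 and -0.85 to 0.58, which hold changes of either sign.

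Tnfrsf11a rose at both ages. It encodes RANK, the receptor of RANK ligand, which signals through TRAF6 and is best known from osteoclasts, and it lies at chr1:105780718-105847981. At 7 months the mThy1-α-synuclein mice were at 6241 at the lowest, 6982 at the median and 7908 at the highest normalized counts, and the wild-type mice at 4992, 5309, 4539.6 and 5598. All 6 mThy1-α-synuclein mice lay above all 4 wild-type mice. The means were 7081 ± 667 (SD, n = 6) and 5109.7 ± 453 (SD, n = 4), a log2 fold change of 0.47 ± 0.08 (SE), or 1.38-fold, with an adjusted p of 0.00475 from limma. This call held under all 17 alternatives run, with adjusted p between 2.45e-05 and 0.0316. At 10 months the mThy1-α-synuclein mice were at 6399.6, 6284, 6633, 5474 and 8418 and the wild-type mice at 5524, 5689, 4496, 4979.7 and 4703. The lowest mThy1-α-synuclein mouse, replicate 4, lay under 2 wild-type mice, and the other 4 lay above the whole wild-type group. The log2 fold change was 0.38 ± 0.10 (SE), with an adjusted p of 0.0393 from limma. This second call was less stable: without any 1 of the 10 mice other than mThy1-α-synuclein replicate 4, the adjusted p from limma lay between 0.05001 and 0.0891, above the threshold in each case. Without that replicate it was 0.0149, and with no filter on low values 0.0518. Of the 10 microglial markers, 1 was called higher at 7 months, beside 4.93% of all genes called, and 3 lay below 0. At 10 months 4 were called higher, beside 7.67% of all genes called, and 1 lay below 0. The part of these markers' cells in the result was not tested. The RANK ligand gene Tnfsf11 was at no more than 1.21 normalized counts in any of the 20 mice.

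Tnfrsf1b encodes TNF receptor 2, which has no death domain and binds TRAF2. At 7 months it was at 14805 at the lowest, 16005 at the median and 17619 at the highest in the mThy1-α-synuclein mice and at 13621, 12716, 15249.7 and 14714 in the wild-type mice. At 10 months the mThy1-α-synuclein mice were at 11707, 12450.5, 13660.2, 12313 and 14193 and the wild-type mice at 15841, 15206, 13898, 13791 and 13613. The mean was thus higher in the mThy1-α-synuclein mice at 7 months and lower at 10 months, with overlap at both. The log2 fold changes of 0.20 and -0.17 had adjusted p of 0.137 and 0.159 from limma, and neither passed.

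**Figure D5:**
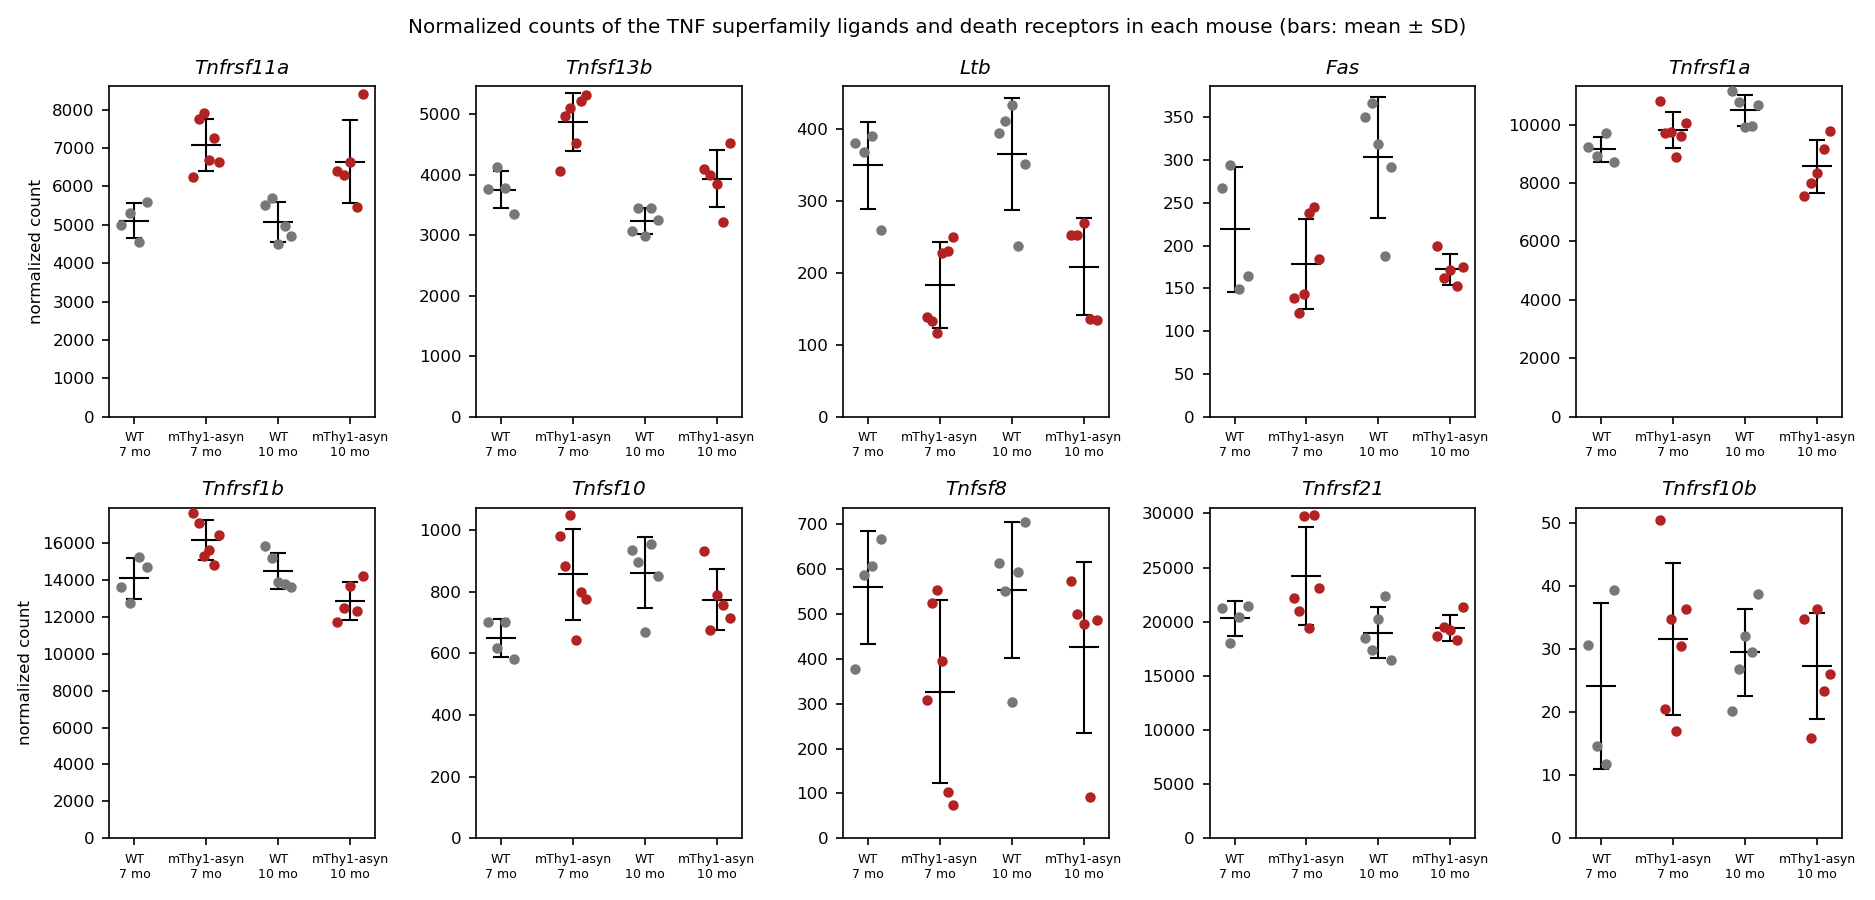
Normalized counts (vertical axes, from 0) of the 10 members, with 1 point for each mouse, gray for wild-type and red for mThy1-α-synuclein, and bars at the mean ± SD of each group. The 7-month groups are apart for Tnfrsf11a and Ltb and the 10-month groups for Tnfrsf1a, and every other pair of groups of the same age overlaps.

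Whether the genotype effect differed between ages was tested directly, as the 10-month log2 fold change minus the 7-month one. Both TNF receptors passed, 2 of the 10 members against 6.36% of 14457 genes, again among members chosen with earlier results known. Tnfrsf1a had a difference of -0.40 ± 0.10 (SE) on the log2 scale, with an adjusted p of 0.0187 from limma, and it passed whichever single mouse was left out. With the replicate number as a block it did not pass (adjusted p = 0.0738, limma). Tnfrsf1b had a difference of -0.37 ± 0.10 (SE), with an adjusted p of 0.0297 from limma. That call was lost without 7-month wild-type replicate 1 or 2 (adjusted p = 0.0633 and 0.0724, limma). It was also lost without 10-month mThy1-α-synuclein replicate 1 or 2 (0.0567 and 0.0507) and without 10-month wild-type replicate 1 or 2 (0.0621 and 0.0547). Each receptor was thus relatively lower with the transgene in the older cohort than in the younger one, and age cannot be told apart from cohort. Tnfsf10 had the same sign, -0.54, and did not pass (adjusted p = 0.0688, limma). It passed without 7-month mThy1-α-synuclein replicate 4 (adjusted p = 0.0253), 10-month mThy1-α-synuclein replicate 1 (0.0446) or 10-month wild-type replicate 3 (0.0278). Without 1 mouse at a time the count of members called ran from 1 to 3. It was 1 without 7-month wild-type replicate 1 or 2, 10-month mThy1-α-synuclein replicate 2 or 10-month wild-type replicate 1 or 2, and 3 without 7-month mThy1-α-synuclein replicate 4 or 10-month wild-type replicate 3. For the other 7 members the difference did not pass, with values from -0.58 for Tnfrsf10b to 0.54 for Tnfsf8. Fas, called at 10 months and not at 7, had a difference of -0.50 with a 95% interval of -1.16 to 0.16, so its effect was not shown to differ between ages.

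The other 36 genes of the family gave 1 call among 22 tested at 7 months and 2 among 22 at 10 months, beside 4.93% and 7.67% of all genes. For the difference between ages 1 of 25 passed, beside 6.36%. Of 14 other ligand genes, 7 were tested at 7 months and 6 at 10 months. Tnfsf18, the ligand of the receptor GITR, was higher at 7 months, at 40.8 at the lowest, 51.2 at the median and 72.1 at the highest in the mThy1-α-synuclein mice against 22.5, 29.1, 14.2 and 21.3 in the wild-type mice. Its log2 fold change was 1.26 ± 0.32 (SE), with an adjusted p of 0.0354 from limma. That call was lost without any 1 of mThy1-α-synuclein replicates 1, 2, 3, 5 and 6 and wild-type replicates 1, 3 and 4, with adjusted p of 0.0537 to 0.0998. Tnfsf14, the ligand LIGHT, was lower at 10 months, at 94.3, 90.2, 119.9, 44.8 and 81.3 against 481, 294, 257, 136 and 162, and no mThy1-α-synuclein mouse reached a wild-type mouse. The log2 fold change was -1.54 ± 0.33 (SE), with an adjusted p of 0.0163 from limma. At 7 months it was -0.94 and did not pass (adjusted p = 0.106), except without mThy1-α-synuclein replicate 4 (0.0134).

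Tnfsf9, the ligand of the costimulatory receptor 4-1BB, was lower at 10 months, at 54.3, 47.9, 72.8, 53.6 and 108 against 105, 118, 137, 112 and 113 (log2 fold change -0.85 ± 0.24 (SE), adjusted p = 0.0432, limma). It failed without any 1 of 9 of the 10 mice, all but mThy1-α-synuclein replicate 5, with adjusted p of 0.0547 to 0.0947, and with edgeR on the recovered reads (0.0603). Of its exon bases, 14.9% are shared with the antisense gene Gm11110, whose reads cannot be told apart where strand was not used. At 7 months the log2 fold change of Tnfsf9 was -0.65 (95% interval -1.21 to -0.09) and did not pass (adjusted p = 0.168, limma). Its difference between ages, -0.20 (95% interval -0.93 to 0.53), did not pass either. Tnf itself, the founding ligand, was at 711 ± 60.1 (SD, n = 6) and 738 ± 141 (SD, n = 4) at 7 months and at 905 ± 189 (SD, n = 5) and 868 ± 117 (SD, n = 5) at 10 months, mThy1-α-synuclein first. Its log2 fold changes of -0.04 and 0.04 had 95% intervals of -0.30 to 0.22 and -0.27 to 0.35. Fasl, the ligand of Fas, was at 0 to 32.5 normalized counts across all mice and was too low to test at 10 months.

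Of 22 other receptor genes, 15 were tested at 7 months and 16 at 10 months. None passed at either age in limma, beside 4.93% and 7.67% of all genes. Beside 2962 of 13887 and 3209 of 13627 of all genes, 2 and 4 of these receptor genes had an unadjusted p under 0.05 in limma. DESeq2 and edgeR called none of them at 7 months and 1 at 10 months, Relt, which is named because these tools called it and so was chosen after its values were seen. Tnfrsf17, the receptor BCMA of B lineage cells, passed for the difference between ages, at 0.88 ± 0.24 (SE) on the log2 scale with an adjusted p of 0.0257 from limma. It was at 313 at the lowest, 319.9 at the median and 424 at the highest in the 7-month mThy1-α-synuclein mice and 481, 441, 468 and 407 in the wild-type mice, and at 328, 325, 359.6, 412 and 340.2 and 143, 245, 289, 282 and 342 at 10 months. The call was lost without 7-month wild-type replicate 1 (adjusted p = 0.0558).

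Downstream of the receptors, all 41 death receptor signaling genes were tested. None passed at 7 months in limma, DESeq2 or edgeR, beside 4.93% of all genes in limma. At 10 months 1 passed in limma, beside 7.67%. For the difference between ages 0 passed in limma, beside 6.36%. In DESeq2 3 passed, beside 1317 of 14454 genes, and in edgeR 1 passed, beside 937 of 14457. An unadjusted p under 0.05 in limma was found for 3, 10 and 10 of the 41 genes in these comparisons, beside 2962 of 13887, 3209 of 13627 and 3171 of 14457 genes. The gene called at 10 months was Map3k7, which encodes the kinase TAK1 between the receptor complexes and NF-κB. It was at 5777, 5871, 5472, 5287 and 5749 in the mThy1-α-synuclein mice and 4583, 4898, 5086, 5074 and 4717 in the wild-type mice, with no overlap, a log2 fold change of 0.21 ± 0.06 (SE) and an adjusted p of 0.0464 from limma. That call failed without any 1 of 8 of the 10 mice, all but mThy1-α-synuclein replicate 4 and wild-type replicate 4, with adjusted p of 0.0640 to 0.0983. With no filter on low values it was 0.0594. At 7 months the log2 fold change of Map3k7 was -0.06 (95% interval -0.20 to 0.08). Its difference between ages, 0.27, did not pass in limma (adjusted p = 0.0534). The median log2 fold change of the 41 genes was 0.03 at 7 months and -0.03 at 10 months. Casp8, the initiator caspase of this pathway, had log2 fold changes of 0.13 (95% interval -0.01 to 0.27) and -0.05 (-0.20 to 0.09), and neither passed.

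Of 7 genes for proteases that process TNF family proteins and their regulators, 1 passed at 7 months (Adam17), beside 4.93% of all genes. At 10 months 1 passed (Furin), beside 7.67%, and for the difference between ages 1 passed (Adam17), beside 6.36%. Adam17 encodes the sheddase that releases TNF and both TNF receptors from the cell surface. At 7 months it was at 19141 at the lowest, 21036 at the median and 22487 at the highest in the mThy1-α-synuclein mice and at 16763, 15908, 16686 and 17901 in the wild-type mice, with no overlap. The log2 fold change was 0.31 ± 0.07 (SE), with an adjusted p of 0.0148 from limma, and 0.0548 and 0.0548 without wild-type replicates 1 and 2. At 10 months it was -0.03 (95% interval -0.17 to 0.11). The difference between ages, -0.34 ± 0.09 (SE), passed with an adjusted p of 0.0243 from limma, and 0.0557 without 7-month wild-type replicate 2. The gene Iah1, on the other strand, shares 4.35% of the exon bases of Adam17. Furin encodes a convertase that cleaves precursors such as BAFF. At 10 months it was at 5523, 5325, 5823, 4638 and 5142 in the mThy1-α-synuclein mice and 4220.0, 3941, 3578, 3609 and 2940.5 in the wild-type mice, with no overlap and a log2 fold change of 0.54 ± 0.09 (SE) (adjusted p = 0.00489, limma). At 7 months its log2 fold change of 0.41 did not pass in limma (adjusted p = 0.14). It passed in DESeq2 (adjusted p = 0.0306) and, in limma, without mThy1-α-synuclein replicate 4 (0.0372).

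Across the mice, some members varied together within their groups. The values below are Pearson correlations of log2 values after subtraction of each group's mean, over 20 mice. The genes compared were measured in the same libraries, and the values are given as descriptions. Among pairs of members, Ltb and Fas had the highest value, 0.64, followed by Tnfrsf1a with Tnfrsf1b at 0.62 and Tnfsf13b with Tnfrsf11a at 0.57. Among the 14457 genes compared, those most like Fas were Rgs18 (0.92), Nedd9 (0.88) and Vim (0.87). Tnfrsf1a was most like Ltbr (0.88), the receptor of lymphotoxin, then Gatsl3 and Ltc4s (both 0.87). The genes most like Ltb were Galnt9 (0.90), Gm10872 (0.88) and Slc28a2 (0.87). Tnfrsf11a was most like Uchl4 (0.80), Pold3 (0.78) and Pgap1 (0.75), and Tnfsf13b was most like D630033O11Rik (0.83), Baiap2 (0.76) and Il7r (0.76).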

How the data were processed

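Polyadenylated RNA from bead-isolated microglia of 20 mice was sequenced in a single run. According to the study's methods and the submitters' processing notes, the authors trimmed reads with Trim Galore 0.6.7, mapped them to mm10 with HISAT2 2.2.1, assigned them to genes with featureCounts, and then scaled the counts by DESeq2 (1.44.0) size factors. The deposited signal values are these normalized counts, scaled separately at each age. The annotation release, strand setting and treatment of multiply mapped reads are not given in the sources used here. All values were whole reads after multiplication by the size factor (100% within 0.1), so the reads were recovered; totals were 33404096 to 77806399, which limits counting error for all members but Tnfrsf10b.

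Genes at 10 or more in at least 4 mice (7 months and the comparison between ages) or 5 mice (10 months) were tested with limma 3.58.1 in R 4.3.3 on log2(value + 1), with trend and robust variance estimates, and p-values were adjusted over all genes tested (Benjamini-Hochberg, 0.05). Fold changes are on this scale and understate the change of low genes. Replicates are separate mice. Alternatives were DESeq2 1.42.0 and edgeR 4.0.16 on the recovered reads, TMM scaling, pseudocounts of 0.5 and 5, no filter, a replicate block and leaving out each mouse. Only the limma fit at each age was run on simulated counts, with planted changes larger than those of the called members. The difference between ages and the other tools were not simulated, so this run says nothing of them or of smaller changes. Members, lists and tests were chosen with earlier results of these data known. All 10 members were described by mouse; from the other lists, genes called in any comparison were named, with Tnf, Fasl and Casp8 whatever they showed, and the 3 genes most like each called member. Whrn and Thy1 were named after their values were seen. Gene positions and exon lengths came from GENCODE M21 (GRCm38), and upstream sequences from RefSeq. The files of single mice hold the same values and were not used separately.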

Additional observations from a re-analysis of the deposited data

Results flagged for a closer look

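Tnfsf8 in the 10-month mThy1-α-synuclein mice had 1 mouse far from the others. Replicate 4 was at 91.6 normalized counts, and the gap to the next mouse was 0.801 of the range of the group. It was the only such gap among 40 groups of member values, of which chance alone flags about 1 in 20.

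Genotype effects that differed between ages by the test of the difference itself were found for Tnfrsf1a (-0.396 on the log2 scale, adjusted p = 0.0187) and Tnfrsf1b (-0.368, adjusted p = 0.0297). Among genes outside the members they were found for Adam17 (-0.342, adjusted p = 0.0243) and Tnfrsf17 (0.884, adjusted p = 0.0257), all from limma.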

How the results depend on the processing

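Of the values of single genes under the alternatives, 1087 kept their direction and side of the threshold, 81 lost the call, 18 gained it and 13 changed sign; no call changed sign. DESeq2 called 1158 genes at 7 months, 1695 at 10 months and 1317 for the difference between ages, against 684, 1045 and 920 in limma. It called 2 death receptor signaling genes at 10 months and 3 for the difference, where edgeR and TMM scaling each called 1. At 7 months edgeR called no death receptor signaling gene. DESeq2 also called Tnfsf13b at 10 months (adjusted p = 0.0281) and Tnfsf10 for the difference (0.041). With no filter on low values, 2 members, 1 other family gene and 0 signaling genes passed at 10 months in limma. Replicate numbers did not pair the mice: same-number correlations of deviations from the group means ran from -0.134 to 0.0995. With the replicate number as a block, 414 genes were called at 7 months and 482 for the difference. The block left 2 members and 0 other family genes at 7 months, and 0 members and 0 other family genes for the difference. At 10 months it left 2 members, 1 other family gene and 0 signaling genes. Calls lost at 7 months were Tnfsf13b, Adam17 and Tnfsf18 (adjusted p = 0.0925, 0.061 and 0.136, limma). At 10 months they were Tnfrsf1a, Tnfrsf11a, Map3k7 and Tnfsf9 (0.0568, 0.055, 0.12 and 0.0609). For the difference they were Tnfrsf1a, Tnfrsf1b, Adam17 and Tnfrsf17 (0.0738, 0.107, 0.0784 and 0.0652). Under the block Furin passed at 7 months (adjusted p = 0.0316), and Tnfsf8 changed sign for the difference (-0.22); the cause was not tested.

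Without 1 mouse at a time, the genes called ran from 280 to 860 at 7 months, from 489 to 1232 at 10 months and from 618 to 1097 for the difference. Members ran from 1 to 4, 0 to 4 and 1 to 3, other family genes from 0 to 2, 1 to 3 and 0 to 1, and signaling genes from 0 to 0, 0 to 1 and 0 to 2. Sign changes without 1 mouse occurred in values that passed no test: Tnf at 7 months (-0.128 to 0.0688), Tnf at 10 months (-0.027 to 0.169), Tnfrsf10b at 10 months (-0.255 to 0.0401), Adam17 at 10 months (-0.0601 to 0.00228), Tnfrsf21 at 10 months (-0.0103 to 0.0996), Tnf for the difference (-0.0274 to 0.209), Fasl for the difference (-1.18 to 0.24) and Ltb for the difference (-0.011 to 0.278). With the longest transcript as the length, at most 4 members changed place in the order of levels in any group. Read counts were low for Tnfrsf10b and Fasl.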

Other observations

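Markers of the remaining cell types are given as summed normalized counts, mThy1-α-synuclein against wild-type mice. Oligodendrocyte markers were 7845 to 10167 against 12702 to 18093 at 7 months, where 3 of 6 passed as lower, and 7584 to 10729 against 8759 to 15108 at 10 months, where none of the 5 tested passed, or had an unadjusted p under 0.05, in limma, DESeq2 or edgeR. Neuron markers were 176 to 336 against 406 to 889 at 7 months, with 3 of 6 lower, and 225 to 456 against 203 to 429 at 10 months. Endothelial markers were 2562 to 4218 against 4633 to 5684 at 7 months, with 2 of 6 lower, and 3479 to 7484 against 3970.1 to 7683 at 10 months. Astrocyte markers were 9247 to 12058 against 8126 to 9941 at 7 months, where 2 of 6 passed as lower and 1 as higher and the median log2 fold change was -0.44, and 9369 to 10652 against 8513 to 10448 at 10 months, where 1 of 6 passed as higher in limma and DESeq2 and 0 in edgeR. Dendritic cell markers were 2266 to 2858 against 2299 to 3346 and 1277 to 1641 against 2136 to 3017, with 1 of 5 lower at 10 months. Border macrophage markers were 15138 to 28313 against 16501 to 23119.6 at 7 months and 13355 to 17223 against 17889 to 22007 at 10 months, where 3 of 6 passed as lower. Oligodendrocyte precursor markers were at most 188 in any mouse. The part of these cells in the members' levels was not tested.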
